A study of Triticum aestivum with 9 samples.

Results

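The added transcripts described here are the 18046 features of the deposited wheat expression table whose identifiers have the form of Novel00161, transcripts that the authors added to the reference genes of bread wheat (Triticum aestivum). They were chosen by that identifier alone, out of 130542 features, and the other 112496 are annotated genes. A total of 11582 added transcripts carried the name of a chromosome in the location column and 6464 the name of an unplaced scaffold. The study asked how seedlings of the cultivar Yunong211 respond to stress of the endoplasmic reticulum (ER), and leaf RNA was sequenced after 2 days in 3 groups of 3 libraries each. T leaves came from seedlings given 7.5 mM dithiothreitol (DTT) together with 25 µg/mL tauroursodeoxycholic acid (TUDCA), D leaves from seedlings given 7.5 mM DTT, and C leaves from seedlings without chemical treatment. All came from this single cultivar, and no group received TUDCA alone, so an effect of TUDCA can be read only in the presence of DTT.

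DTT is a reducing agent that breaks disulfide bonds and so disturbs protein folding in the ER, and TUDCA is a bile acid derivative used as a chemical chaperone. Added transcripts in an RNA-seq study of this kind are transcribed regions that read alignments reveal outside the gene models of the reference, and they can hold missed coding genes, non-coding RNAs or detached pieces of known genes. Bread wheat carries the A, B and D subgenomes, so many genes exist as closely similar homoeologs that can share reads, and the reference used here was still split into chromosome sequences and many separate scaffolds.

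The 5 bases at the 3′ end are capitalised in each primer below, because that end is where extension begins. These 10 primers were designed in the study for quantitative RT-PCR of 5 added transcripts and are shown because they are the bases that identify these transcripts in the sources used here. A genome of the build that carries these coordinates was not used here, so no other bases are given, and positions are those of the deposited table, which uses chromosome and IWGSC scaffold names of a release not given in the sources used here. Novel00161 (GO term peroxidase activity) lies on chromosome 1A, 118085778 to 118086795, plus strand. Novel04197 (DNA integration) lies on chromosome 3B, 739627260 to 739632639, plus strand. Novel07753, listed in the study as a basic helix-loop-helix (bHLH) factor, lies on chromosome 5D, 22316375 to 22318551, plus strand. Novel12259, listed as a MYB factor, lies on scaffold IWGSC_CSS_1DS_scaff_1907104, 4152 to 9933, plus strand. Novel13869, listed as a WRKY factor, lies on scaffold IWGSC_CSS_3B_scaff_10726592, 2437 to 4051, minus strand. Each primer is written 5′ to 3′, F for forward and R for reverse.
Novel04197-F: cgaggcgtggtatggGATGT
Novel04197-R: gctcctgtcgtcgagCTTCT
Novel00161-F: ggacctgtgcgtggaCTACT
Novel00161-R: atgcgagggtccgacTTGTG
Novel13869-F: gagaactcgtcggcgTCCTT
Novel13869-R: tattccctcgccgtcACCAC
Novel07753-F: gcatcctcccgaagaAGCCT
Novel07753-R: tcgaccggcgattcaCTTCA
Novel12259-F: ctgacgaggtgaccataCTGCT
Novel12259-R: gacctccacaagcttTGCGT

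Levels were given as FPKM, fragment numbers divided by transcript length in kilobases and by library size, and the libraries held between 16334906 and 26760247 fragments. Statements that libraries overlap or lie apart use these FPKM without scaling, whereas log2 differences were taken after scaling between libraries. Without scaling, D leaves ran above C leaves by a median of 0.22 (log2) over all tested features, so some separations may not hold after scaling. The label leaf was checked with 24 annotated genes of the photosystem II oxygen-evolving complex, whose summed level lay between 5005 and 11357 FPKM in the 9 libraries and was lower in all T and D leaves than in any C leaf. The study lists these 24 among its own D vs. C DEGs in these samples. Their lower level in treated leaves is therefore no independent evidence of direction. In whole-leaf RNA, fewer cells of a type and less RNA per cell cannot be told apart. No added transcript was among those 24 genes, and the part of this difference in the results below was not tested. The library kit is not stated to keep strand, so reads of transcripts that overlap on opposite strands cannot be told apart.

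Added transcripts were found on all 21 chromosomes. Chromosome 3B held the most placed added transcripts (926) and 5A the fewest (342). With its scaffolds counted in, 2B had the most (1147) and 1B the fewest (651). The share that lay on scaffolds ran between 11.2% on 3B and 52.1% on 5A. Another 46 added transcripts lay on scaffolds named v443 that carry no chromosome in their name, and 6418 lay on scaffolds named after a chromosome arm or chromosome. Relative to annotated genes whose identifier names the same chromosome, there were 25.2 added transcripts per 100 on 6B and 10.9 per 100 on 3B. The 3 subgenomes had 18.0 (A), 18.0 (B) and 16.4 (D) per 100. The 9433 annotated genes whose identifiers name none of the 21 chromosomes were left out of these ratios. The 6464 scaffold transcripts were spread over 6062 scaffolds, of which 5686 held a single one and the fullest held 4.

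**Figure D1:**
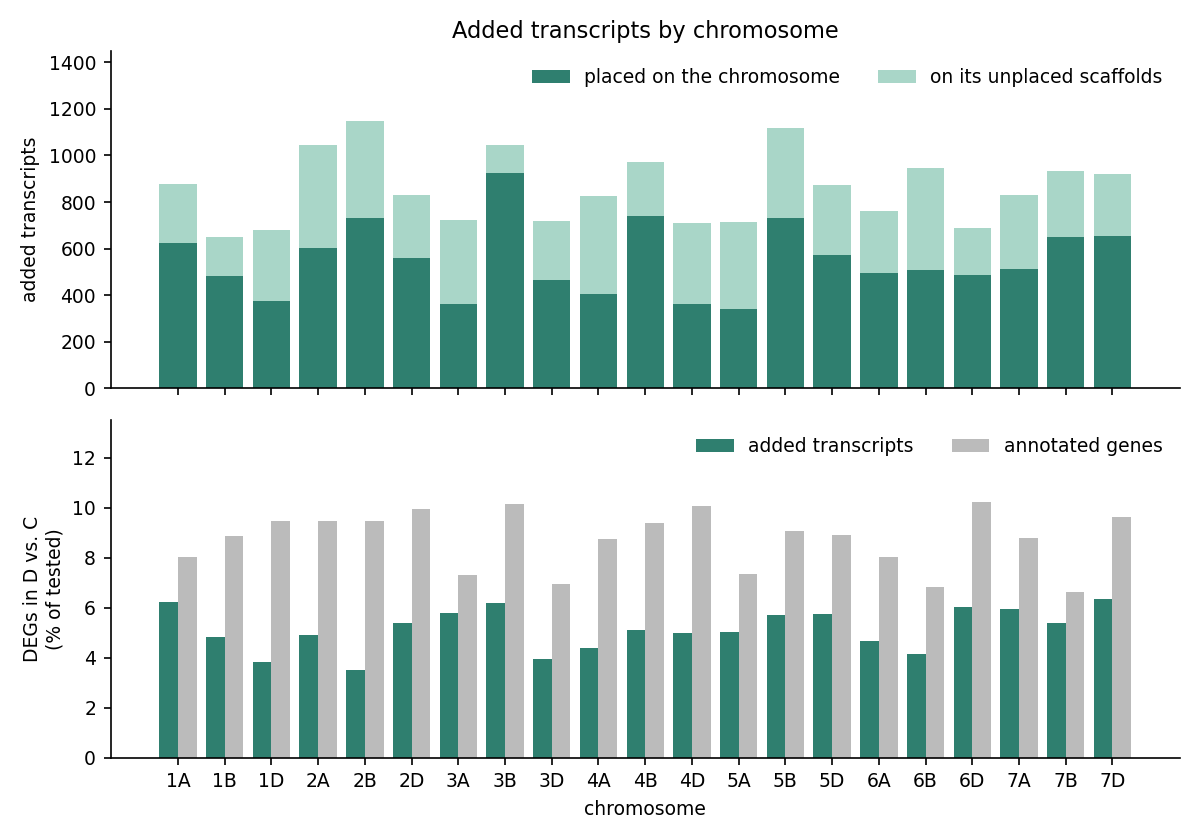
Upper bars show the number of added transcripts on each chromosome, placed (dark) and on scaffolds named after it (light). Lower bars show the percentage of tested added transcripts (green) and tested annotated genes (grey) called as differentially expressed genes (DEGs) in D vs. C, where the share in added transcripts was the lower one on 21 of 21 chromosomes.

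The span of an added transcript, end minus start, had a median of 2487.5 bp with quartiles of 1510 and 3797 bp, and ran between 186 and 203539 bp. Only 190 spans exceeded 20 kb, and 189 of these were on chromosomes. The median span was 2603 bp on chromosomes and 2306 bp on scaffolds. Medians of placed transcripts lay between 2131 bp on 3A and 3020.5 bp on 3B. Novel04565 (chromosome 3B, 624012379 to 624215918, minus strand) had the longest span, 203539 bp, followed by Novel01788 (179914 bp, 2A) and Novel00792 (173801 bp, 1B). The lengths by which the authors divided to obtain FPKM were 1675, 4582 and 4491 bp in these transcripts, a small part of their spans. Novel04565 was nonetheless measured in all libraries, with 2.72, 3.26 and 2.67 FPKM in T leaves, 2.7, 4.35 and 2.98 in D leaves and 2.03, 2.15 and 1.96 in C leaves. Every treated library lay above every C library in unscaled FPKM. After scaling, the first D library no longer lay above the second C library. The D vs. C difference of 0.42 ± 0.22 (log2, SE), taken after scaling, was not called. Novel00792 overlaps another added transcript on the opposite strand. None of these 3 transcripts passed the test in any comparison.

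Start and end are filled only for added transcripts, so annotated genes were compared by the length behind the FPKM. This length could be recovered for 17178 added transcripts, with a median of 1401.5 bp and quartiles of 898 and 2086 bp, and for 74357 annotated genes, with a median of 1187 bp and quartiles of 679 and 1865 bp. A recovered length can be too short where the fragment numbers of a feature share a factor, above all in features found in few libraries. Only 48.6% of annotated genes were above 0 in all 9 libraries, against 87.5% of added transcripts. The part of this in the difference was not tested. In added transcripts it covered a median of 65.4% of the distance from the first to the last base. It was at least 60 bp shorter than that distance in 16702 transcripts (97.2%) and equal to it in 196 (1.14%). In 112 (0.652%) it was longer than the distance. There were 9170 added transcripts on the plus strand and 8876 on the minus strand. Among them, 948 pairs overlapped one another, 914 on opposite strands, and 1860 transcripts (10.3%) were in such a pair.

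Most added transcripts were detected. Transcripts of this kind are revealed by read alignments, so being detected is part of how they enter the class. The shares detected and over 1 FPKM below are therefore descriptions, and no independent evidence of a higher level than in annotated genes. At least 1 fragment was found in some library for 17180 (95.2%), against 74357 annotated genes (66.1%), and 866 added transcripts (4.80%) were listed at 0 in all 9 libraries. Added transcripts above 0 in every library numbered 15790 (87.5%), against 54691 annotated genes (48.6%). A mean over 1 FPKM was reached by 65.1% of the added transcripts and 38.6% of the annotated genes. At the upper end the order was the other way round, with 116 added transcripts (0.643%) and 1635 annotated genes (1.45%) over 60 FPKM. Among features above 0 in a library, the median level lay between 1.67 and 2.29 FPKM in added transcripts and between 2.14 and 2.62 FPKM in annotated genes, and was the lower one in added transcripts in each of the 9 libraries. By the mean over 9 libraries the order was turned round, with a median of 1.91 FPKM over the added transcripts and 1.73 FPKM over the annotated genes with a fragment in any library. The median of such means was 1.96 FPKM for added transcripts on chromosomes and 1.84 FPKM for those on scaffolds.

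The 10 most abundant added transcripts had means between 329 and 1698 FPKM. Novel00481 (819 bp span on chromosome 1A) was the highest, with 2425, 2174 and 1769 FPKM in T leaves, 1662, 1965 and 2247 in D leaves and 1073, 997 and 971 in C leaves. All 6 treated libraries lay above all C libraries. For the looser pattern of D and C libraries that do not overlap in either direction, the share was 38.8% of all tested features. The D vs. C difference of 0.69 ± 0.25 (log2, SE) missed both limits of a call (limma unadjusted P = 0.022). Novel03110 on chromosome 2D had 607, 828 and 889 FPKM in T leaves, 490.4, 479 and 393 in D leaves and 1748, 2852 and 1776 in C leaves. It fell in D leaves by 2.44 on the log2 scale (SE 0.28, limma unadjusted P = 7.0e-06, adjusted P = 8.5e-04), and no treated library reached the lowest C library. Novel09519 on chromosome 6D had 1006, 675 and 684 FPKM in T leaves, 1013, 1073 and 1636 in D leaves and 189, 157 and 148 in C leaves. It rose in D leaves by 2.64 ± 0.26 (adjusted P = 3.3e-04), and all T libraries also lay above all C libraries. Neither of these carries a name or GO term in the tables used here. Of all 10, 2 rose, 1 fell and 7 were not called in D vs. C, where 8.02% of all tested features were called, and 3 rose without the first D library. None was called in T vs. D (1.10% of all tested features), where 4 had an unadjusted P under 0.05.

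Fragments on added transcripts made up 12.9%, 11.7% and 14.3% of all gene fragments in the 3 T libraries, 14.4%, 12.6% and 12.5% in the D libraries and 11.1%, 10.9% and 11.8% in the C libraries. Every D library lay above every C library, while the second T library lay just below the highest C library. The D share averaged 13.2% ± 1.04 and the C share 11.2% ± 0.483 (SD, n = 3 each), a difference of 1.92 percentage points with an exact permutation P of 0.1, the smallest that 3 against 3 libraries can give. T leaves averaged 13.0% ± 1.30 (SD, n = 3), 1.72 points above C leaves (exact permutation P = 0.2) and −0.20 points from D leaves (exact permutation P = 0.9). None of the 3 differences therefore passed 0.05. Without the first D library the D minus C difference was 1.32 points.

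Added transcripts also moved together between libraries of the same group. After scaling on annotated genes, the median added transcript lay 0.00, −0.15 and 0.22 from its own 9-library mean in the T libraries (log2), 0.18, −0.04 and −0.04 in the D libraries and −0.06, 0.01 and 0.03 in the C libraries. Annotated genes stayed between −0.03 and 0.02. The first D library and the third T library thus stood apart from their group in added transcripts, and they did so on chromosomes (0.18 and 0.22) and on scaffolds (0.19 and 0.22) alike. In the second T library, long transcripts were low in both classes, with medians of −0.45 in added and −0.16 in annotated transcripts of 2000 bp or more. Those under 1000 bp lay at 0.13 and −0.01 there. What set these libraries apart was not tested, and counts over all added transcripts are also given without them below.

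**Figure D2:**
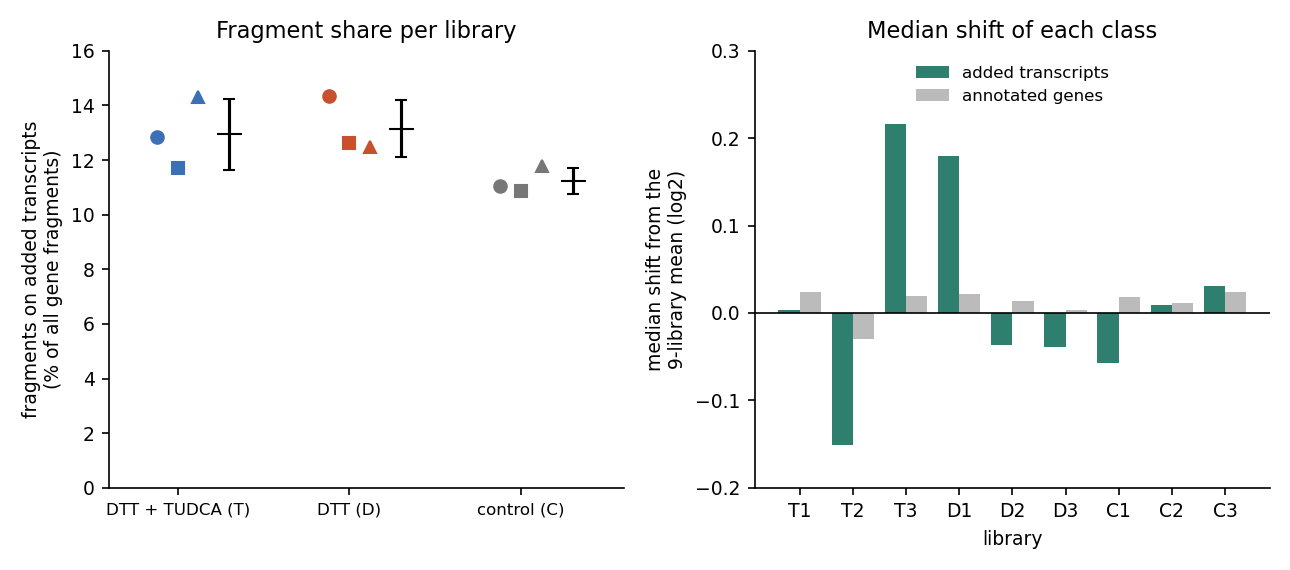
Left, the share of gene fragments on added transcripts in each library (circle, square and triangle for replicates 1, 2 and 3), with the group mean and SD in black. Right, the median log2 distance of added transcripts (green) and annotated genes (grey) from their own mean over 9 libraries, where T3 and D1 stand above the rest in added transcripts at 0.22 and 0.18 and T2 lies lowest at −0.15.

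A feature was called a DEG when limma gave an unadjusted P under 0.01 and a log2 fold change of at least 1 in size, on log2(scaled FPKM + 0.1), and 16571 added transcripts and 61459 annotated genes had the mean of 0.1 FPKM needed to enter the test. In D vs. C, 856 of the tested added transcripts (5.17%) were DEGs, against 8.02% of all tested features and 8.79% of the annotated genes. They comprised 548 that rose and 308 that fell, so 64.0% of these DEGs rose, whereas 51.5% of the 5400 annotated DEGs rose. In T vs. C, 874 added transcripts (5.27%) were DEGs, against 7.87% of all tested features and 8.57% of the annotated genes. Of the tested added transcripts 588 (3.55%) rose and 286 (1.73%) fell, against 4.36% and 3.50% of all tested features. In T vs. D, 95 added transcripts (0.573%) were DEGs, 56 up and 39 down, against 1.10% of all features and 1.24% of the annotated genes. D vs. C and T vs. C share the C libraries, and D vs. C and T vs. D share the D libraries.

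These calls are at an unadjusted P. At an adjusted P under 0.05, 945 of the tested added transcripts (5.70%) changed in D leaves and 815 (4.92%) in T leaves relative to C leaves, where the shares of all tested features were 9.04% and 7.75%. None (0) differed between T and D leaves, against 0.00128% of all tested features, which is 1 annotated gene. In that last comparison limma gave 957 added transcripts (5.78%) an unadjusted P under 0.05, against 7.42% of all tested features, and limma-voom on fragments also gave 0 at an adjusted P under 0.05. The T vs. D count of DEGs, at the unadjusted limits, was 322 without the first T library, 71 without the second and 149 without the third, and 112 without the first D library. The D vs. C count was 772 without the first D library, and the T vs. C count was 750 without the second T library and 968 without the third. Median log2 differences of all tested added transcripts were 0.03 for D over C, 0.01 for T over C and −0.03 for T over D, and those of annotated genes were −0.02, −0.02 and −0.02. The signs in added transcripts hung on single libraries. Without the first D library the medians were −0.03 for D over C and 0.02 for T over D. T over C was −0.07 without the third T library, and T over D was 0.06 without the second. Without scaling, all features shifted upward by a median of 0.22 in D vs. C, and 81.2% of 1040 DEGs among added transcripts and 70.6% of 5755 annotated DEGs then rose. In T vs. C, 85.6% of 1098 such DEGs rose without scaling.

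Placement and level were compared next. DEGs in D vs. C made up 5.57% of the tested added transcripts on chromosomes (589 of 10573) and 4.45% of those on scaffolds (267 of 5998), and in both 64.0% rose. On single chromosomes the share ran between 3.51% (2B) and 6.35% (7D), and it was below that of the annotated genes of the same chromosome on 21 of 21. More DEGs among added transcripts rose than fell on 18 of the 21. When features were grouped by mean level, added transcripts had the lower share of DEGs in 5 of 6 bins for D over C, in 6 of 6 for T over C and in 5 of 6 for T over D. The exceptions were the bin of 0.1 to 0.3 FPKM in D vs. C (5.86% of added transcripts and 5.78% of annotated genes) and the bin of 30 FPKM and over in T vs. D (1.67% and 1.10%, from 6 and 41 DEGs). In D vs. C the share was 11.9% of added transcripts and 18.5% of annotated genes at 30 FPKM and over. The within-group SD (log2) was the lower one in added transcripts in the 3 bins under 3 FPKM and the higher one in the 3 bins above. These shares are descriptions, since features of one library are not replicates of a condition.

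**Figure D3:**
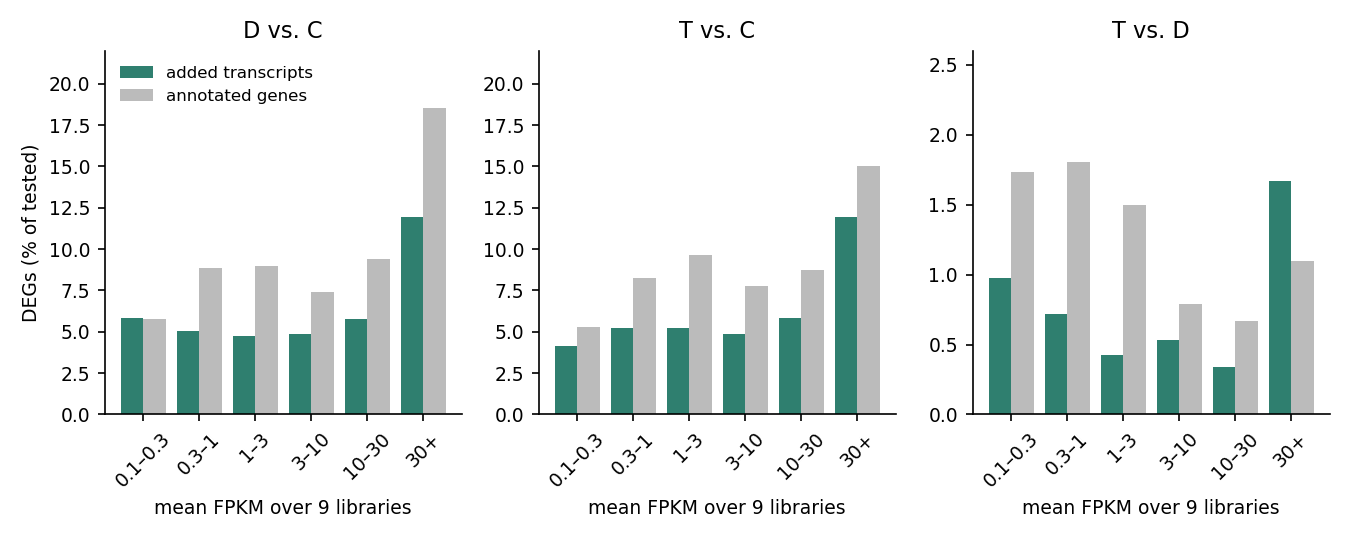
Percentage of tested added transcripts (green) and annotated genes (grey) called as DEGs, in 6 bins of mean FPKM, in the 3 comparisons (T vs. D with a smaller vertical scale). At 30 FPKM and over in D vs. C, 11.9% of the added and 18.5% of the annotated features were called.

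Some transcripts were detected in only 1 of the groups compared. In D vs. C, 29 added transcripts (0.161%) had more than 3 fragments in each D library and none in any C library, and 1 had the opposite pattern. The numbers for annotated genes were 147 (0.131%) and 34. In T vs. C there were 14 (0.0776%) and 3 (0.0166%) added transcripts of these kinds, and 99 (0.0880%) and 20 (0.0178%) annotated genes. In T vs. D there were 0 and 0 added transcripts and 3 and 4 annotated genes. These percentages are over all 18046 added transcripts and 112496 annotated genes. Of these, 4.80% and 33.9% were listed at 0 in all 9 libraries. The shares of the 2 classes therefore have unlike bases, and their order says nothing about detected features.

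Some of the largest responses came from added transcripts under the GO term response to water. Of these, only Novel16561 and Novel09719 carry a name in the study, as a dehydrin and a cold shock protein. Dehydrins and related proteins are hydrophilic proteins that plant cells accumulate as they lose water or cool. The study's GO table lists 10 added transcripts under response to water, drawn from its own DEGs in these samples, so the counts that follow are no independent evidence of direction. In D vs. C, 8 of the 10 rose, 1 fell and 1 was not called, where 4.27% of all tested features rose and 3.75% fell. Their median difference was 4.40 (log2), or 5.27 with the 4 transcripts without a fragment in C leaves set at their lower bound, against 0.03 over all tested added transcripts. In T vs. D, 5 fell and 5 were not called (background 0.466% down), with a median of −1.73, and 0 passed an adjusted P of 0.05, 7 having an unadjusted P under that value. The one that fell in D vs. C lay on 4B, and all others lay on chromosomes 5B, 5D, 6A, 6B or 6D or on scaffolds of these.

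Novel16561, annotated as dehydrin DHN3, lies on scaffold IWGSC_CSS_6BL_scaff_4265806, 1035 to 1954, plus strand, and had 14.7, 5.15 and 8.36 FPKM in T leaves, 42.1, 22.5 and 65.9 in D leaves and 0, 0.067 and 0.138 in C leaves. The 3 groups did not overlap. It rose by 7.82 ± 0.48 in D vs. C (log2, SE; adjusted P = 5.3e-05) and fell by 2.14 in T vs. D (unadjusted P = 0.0013, adjusted P = 0.49). Novel16544 on another 6BL scaffold had 34.9, 20.3 and 19.3 FPKM in T leaves, 115, 47.4 and 175 in D leaves and 0.68, 0.325 and 0.501 in C leaves. Again no library of a group overlapped with another group, and the changes were 7.18 ± 0.44 for D over C and −1.98 ± 0.44 for T over D (unadjusted P = 0.0012). Novel09719, annotated as cold shock protein CS66, a dehydrin-like protein of cereals, lies on chromosome 6D, 156809111 to 156811883, minus strand. It had 4.87, 1.43 and 3.75 FPKM in T leaves, 19, 6.22 and 13.1 in D leaves and 0.0183, 0.0393 and 0 in C leaves. With 3 fragments in all C leaves together, D leaves were higher by 777-fold (95% counting interval 266 to 3772). In T leaves it fell by 1.86 relative to D leaves (unadjusted P = 0.0033), a call lost without the first D library (unadjusted P = 0.018) or the third (unadjusted P = 0.0142).

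Another 4 of these transcripts had no fragment in any C library, and folds for them are lower bounds against 3 fragments over the 3 C libraries. Novel07922 (5D) had 4.67, 0.824 and 1.16 FPKM in T leaves and 17.2, 9.56 and 18 in D leaves, and D leaves were at least 277-fold higher than C leaves. It fell by 2.97 in T vs. D (unadjusted P = 2.4e-04, adjusted P = 0.4), without overlap. Novel15703 (5BL scaffold) was at least 39.8-fold higher in D leaves and Novel15565 (5BL scaffold) at least 37.3-fold. Novel15565 had 0, 0.368 and 0 FPKM in T leaves, against 1.54, 1.47 and 7.39 in D leaves, with 3 fragments in T and 106 in D leaves. Novel09497 (6D) was at least 16.2-fold higher in D leaves by fragments, but its second D library held only 0.0717 FPKM and its unadjusted P of 0.011 missed the threshold.

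The other 3 behaved unlike one another. Novel17043 (6DL scaffold) was the most abundant of the 10, with 503, 175 and 223 FPKM in T leaves, 629, 501 and 554 in D leaves and 137, 123 and 112 in C leaves. It rose by 1.93 ± 0.33 in D vs. C (adjusted P = 0.0055), while T vs. D gave −0.99 ± 0.33 and missed the call (unadjusted P = 0.012). Novel08741 (6A) had 5, 1.3 and 5.32 FPKM in T leaves, 10.8, 3.36 and 9.85 in D leaves and 0.271, 0.159 and 0.363 in C leaves, and rose by 4.15 ± 0.57 in D vs. C. Novel05889 (4B) fell by 1.25, with 228, 149 and 207 FPKM in T leaves, 208, 204 and 166 in D leaves and 452, 351 and 356 in C leaves, and all treated libraries lay below all C libraries. Its size passed the fold limit by little, and with quantile normalization it was −0.82.

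**Figure D4:**
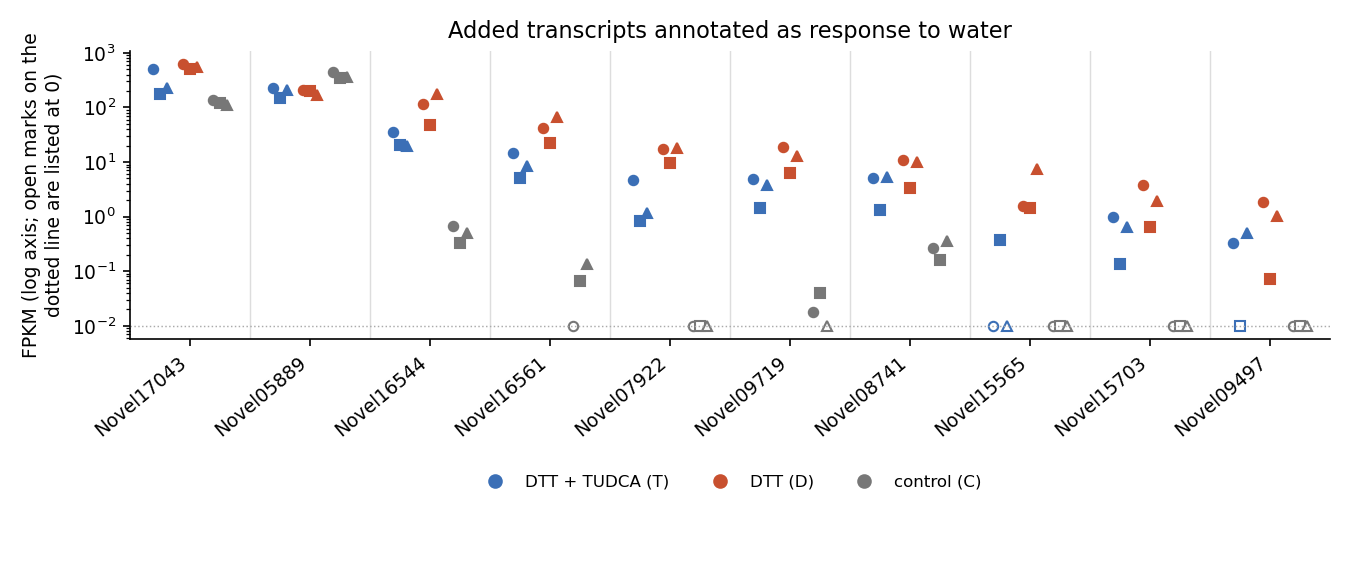
FPKM on a log axis of the 10 added transcripts under response to water, ordered by mean level, in T (blue), D (orange) and C (grey) leaves, with a circle, square or triangle for replicates 1, 2 and 3 and open marks for libraries listed at 0. In Novel16544, Novel16561, Novel07922 and Novel09719 the 3 groups are separate, and Novel05889 is the one transcript higher in C leaves.

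The largest rises of D vs. C by fitted log2 fold change, which the pseudocount compresses in low transcripts, among 685 added transcripts called as DEGs whose libraries did not overlap and whose higher group averaged at least 1 FPKM, included 3 transcripts besides Novel16561 and Novel16544. Novel07386 (chromosome 5B, 31275234 to 31276266, minus strand), whose GO term is membrane, had 37.5, 25.6 and 20.8 FPKM in T leaves, 71.9, 66.3 and 139.8 in D leaves and 0.107, 0.0574 and 0.0788 in C leaves. Its rise of 8.76 ± 0.31 was the largest of the 685 on the fitted scale (adjusted P = 7.0e-06), and it fell by 1.63 in T vs. D (unadjusted P = 3.9e-04). Novel07531 (5B, GO term defense response) had 8.54, 1.11 and 0.949 FPKM in T leaves, 11.4, 31 and 22.8 in D leaves and 0, 0 and 0.0445 in C leaves. With 1 fragment in C leaves, D leaves were higher by 1169-fold (95% counting interval 209 to 46233). The T vs. D change of −3.12 ± 0.71 was called at the unadjusted limits (limma unadjusted P = 0.0014, adjusted P = 0.49). Novel02938 (2D, without annotation) had no fragment in C leaves and was at least 375-fold higher in D leaves, with 19.4, 10.4 and 25.8 FPKM. Its fall of 1.73 in T vs. D (unadjusted P = 0.0069) was lost when any one library was left out other than the second D or first T library (unadjusted P between 0.0102 and 0.0335). T vs. D shares the D libraries with D vs. C, by which these 3 transcripts were chosen as high in D leaves. Their falls in T vs. D are therefore no independent evidence.

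The 5 largest falls of D vs. C on the same scale were of transcripts without annotation. Novel09243 (6B) had 1.31, 0.263 and 0.22 FPKM in D leaves, against 9.69, 7.07 and 11.2 in C leaves, a change of −4.30 ± 0.49 (adjusted P = 7.2e-04). Novel16091 (5DL scaffold) had 0.143, 3.29 and 0.132 FPKM in D leaves, against 9.27, 7.73 and 7 in C leaves, a change of −4.02 ± 0.94, the second D library standing above the other 2. Novel10699 (7B) changed by −3.82 ± 0.41, Novel13780 (3AS scaffold) by −3.74 ± 0.58 and Novel03344 (2D) by −3.68 ± 0.59. In T leaves these 5 stayed below C leaves, and all 5 were also called in T vs. C. There 3.50% of all tested features were called as falls. T vs. C shares the C libraries with D vs. C, by which the 5 were chosen, so this is no independent evidence. None of them was called in T vs. D, where 1.10% of all tested features were.

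In T vs. D the eligible DEGs among added transcripts, chosen by the same rule, numbered 68. Novel01728 (2A, GO term regulation of calcium ion transport) had 0.743, 1.61 and 1.13 FPKM in T leaves, 0.0563, 0.0619 and 0.104 in D leaves and 0.0586, 0 and 0.173 in C leaves, and rose by 2.81 ± 0.47 (unadjusted P = 1.4e-04, adjusted P = 0.4), D and C leaves lying together. Novel05118 (3D) had 8.9, 43 and 16.9 FPKM in T leaves, against 5.23, 1.85 and 3.27 in D leaves, a rise of 2.58 ± 0.56, with the second T library far above the other 2. It spans 15544 bp for a length of 289 bp. Novel00598 (1A) had 1.84, 11.3 and 2.18 FPKM in T leaves, against 1.01, 0.186 and 0.74 in D leaves, and its rise of 2.56 ± 0.76 (unadjusted P = 0.007) also leaned on the second T library. Its call was lost with the replicate block (unadjusted P = 0.014) and without the second T, second D, the third D or second C library (unadjusted P between 0.0102 and 0.0315). Novel08029 (5D, GO term for transcription factor activity) had 2.17, 3.21 and 0.607 FPKM in T leaves, against 0.276, 0.303 and 0.127 in D leaves, a rise of 2.45 ± 0.61 that was lost without the third D, first T or second T library (unadjusted P between 0.0106 and 0.0115). Novel08388 (6A) had 0.873, 2.67 and 1.19 FPKM in T leaves, against 0.172, 0.189 and 0.318 in D leaves, a rise of 2.27 ± 0.53. Among the 5 largest falls, Novel01409 (1D, GO term DNA binding) had 0.775, 0.0976 and 0.925 FPKM in T leaves, 4.25, 1.77 and 4.48 in D leaves and 0.0284, 0 and 0.0627 in C leaves. It fell by 2.51 (unadjusted P = 0.0022), and this call was lost without the first D library (unadjusted P = 0.0108) or the third (unadjusted P = 0.0115). The other 4 falls were Novel15565, Novel07531, Novel07922 and Novel16561, described above.

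The ER was represented by 5 added transcripts of the study's list of protein processing, again chosen among its DEGs, of which 1 rose, 2 fell and 2 were not called in D vs. C (4.27% of all tested features rose and 3.75% fell). In T vs. C 2 rose, 1 fell and 2 were not called (4.36% and 3.50%), and in T vs. D 1 rose and 4 were not called (0.632% up). Without the second T library 1 rose and 0 fell in T vs. C, and 0 were called in T vs. D. Without the first D library 2 rose and 0 fell in T vs. C, and 2 rose in T vs. D. Novel04851 (3D), glucosidase I, which trims the outermost glucose of newly attached N-glycans, had 2.35, 3.05 and 1.71 FPKM in T leaves, 3.24, 2.81 and 2.73 in D leaves and 0.914, 0.849 and 0.399 in C leaves. It rose by 1.72 ± 0.34 in D leaves (adjusted P = 0.011), every treated library lying above every C library. The 2 RMA1 transcripts are annotated in the study as the E3 ubiquitin-protein ligase RNF5. RMA1 ligases in general sit in the ER membrane and act in degradation of misfolded proteins. The GO terms of Novel07785, however, name the anaphase-promoting complex and nuclear and cullin-RING ubiquitin ligase complexes. Novel07430 (5B) had 78.4, 117 and 108 FPKM in T leaves, 75.3, 48.2 and 43.2 in D leaves and 134, 133 and 158 in C leaves, and fell by 1.63 (adjusted P = 0.0024). Novel07785 (5D) had 59.7, 104 and 73.7 FPKM in T leaves, 50.5, 34.1 and 28.2 in D leaves and 88.4, 81.1 and 95 in C leaves, and fell by 1.51 (adjusted P = 0.0051). In T vs. D, Novel07785 rose by 1.13 ± 0.25 (unadjusted P = 0.0012), a value of 0.96 without the third D library and 0.89 without the second T library, both under the fold limit. Novel07430 gave 0.94 ± 0.23 there, also under it. Novel09086 (6B), a protein disulfide isomerase, which forms and rearranges disulfide bonds, had 5.21, 9.59 and 8.39 FPKM in T leaves, 5.81, 5.17 and 6.44 in D leaves and 2.51, 2.42 and 4.13 in C leaves, a D vs. C difference of 0.72 ± 0.27 that was not called, and a T vs. C rise of 1.14 ± 0.27 (unadjusted P = 0.002). Novel07145 (5B), a Sec23/24 component of the vesicle coat that carries cargo out of the ER, gave −0.45 ± 0.36 in D vs. C, which was not called, and fell by 1.21 in T vs. C (unadjusted P = 0.0071, adjusted P = 0.069).

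Hormone signalling was represented by 5 added transcripts, chosen by the study in the same way, of which 3 rose, 1 fell and 1 was not called in D vs. C (4.27% of all tested features rose and 3.75% fell). None was called in T vs. D, where 1.10% of all tested features were, and none had a P under 0.05 there. Without the second T library 1 rose in T vs. D. Novel01791 (2A), a protein phosphatase 2C of the family that restrains abscisic acid signalling, had 4.22, 1.24 and 1.52 FPKM in T leaves, 4.36, 2.69 and 5.94 in D leaves and 0.0349, 0 and 0 in C leaves. With 1 fragment in C leaves, D leaves were higher by 417-fold (95% counting interval 74.4 to 16508). Novel05921 (4B), EIN2, an ER-membrane protein at the centre of the ethylene pathway, had 12.8, 5.94 and 11.8 FPKM in T leaves, 16.5, 11.3 and 12.9 in D leaves and 4.67, 4.14 and 4.54 in C leaves, and rose by 1.32 ± 0.26 (adjusted P = 0.011). BRI1 is the receptor kinase for brassinosteroids. Of its 2 transcripts, Novel01018 (1B) had no fragment in C leaves and was at least 35.9-fold higher in D leaves, with 0.737, 0.621 and 1.11 FPKM. Novel03728 (3A) had 0.363, 0.57 and 0.463 FPKM in D leaves, against 0.935, 0.87 and 0.783 in C leaves, a difference of −0.996 ± 0.39 that was not called. Novel08494 (6A), an AUX/IAA repressor of auxin responses, had 0.243, 0 and 0 FPKM in D leaves, against 0.694, 0.678 and 0.745 in C leaves, and changed by −2.57 ± 0.68 (unadjusted P = 0.0036). That call was lost without the second or the third D library or any single C library (unadjusted P between 0.011 and 0.0156).

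**Figure D5:**
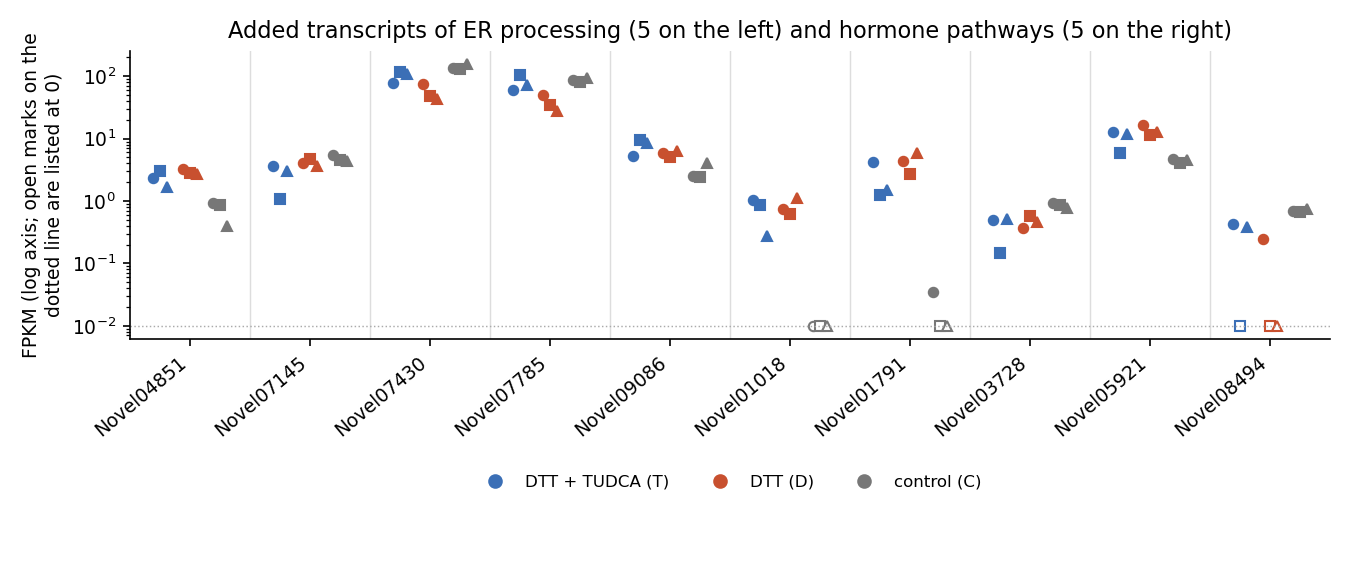
FPKM on a log axis of the 5 added transcripts of ER protein processing (left) and the 5 of hormone pathways (right) in T (blue), D (orange) and C (grey) leaves, with a circle, square or triangle for replicates 1, 2 and 3 and open marks for libraries listed at 0. Both RMA1 transcripts, Novel07430 and Novel07785, are lowest in D leaves.

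A further 37 added transcripts stand in the study's table of transcription factors, likewise taken from its DEGs. In D vs. C, 19 rose, 11 fell and 7 were not called, where 4.27% of all tested features rose and 3.75% fell, and 16 rose and 11 fell without the first D library. In T vs. D, 3 rose, 1 fell and 33 were not called (10 had an unadjusted P under 0.05), where 0.632% of all tested features rose and 0.466% fell. Without the first D or the second T library 3 rose and 0 fell there. FAR1 proteins, which in Arabidopsis act in far-red light signalling, were the largest family, with 5 of 8 up and 1 down in D vs. C. Family labels are predictions of the study, and GO terms of some FAR1 members name other functions. These are glutathione peroxidase activity (Novel05150), heme oxygenase activity (Novel05939), proton-transporting ATP synthase activity (Novel08319) and serine-type peptidase activity (Novel16369). The other FAR1 members carry no GO term here. Such terms also occur in other families. Examples are cysteine dioxygenase activity (Novel07753, bHLH), bile acid and bile salt transport (Novel06258, bHLH), plant-type cell wall organization (Novel12059, homeobox) and cytokinesis (Novel07693, ABI3VP1). Some other members, such as Novel13869 (WRKY), carry terms of transcription factor activity. Of 5 bHLH members 3 rose and 1 fell, of 4 ABI3VP1 members 2 rose and 2 fell, and all 3 NAC members rose. By fitted log2 fold change the largest fall was Novel02044 (2A, G2-like) with 0.602, 0.576 and 0.628 FPKM in D leaves, against 3.89, 5.44 and 6.59 in C leaves, a change of −3.14 ± 0.31 (adjusted P = 3.5e-04). Novel02423 (2B, G2-like) had 0.704, 0.4 and 0.47 FPKM in D leaves, against 3.46, 3.25 and 7.41 in C leaves, a change of −3.10 ± 0.34, and Novel08494 was the next. By fragments Novel06456 (4D, family Orphans), named after its values were seen, had a lower ratio, 0.0754 of the C level (95% counting interval 0.00870 to 0.299) from 2 fragments in D and 28 in C leaves. Among the largest rises, Novel12059 (1DL scaffold, homeobox) had no fragment in C leaves and was at least 110.1-fold higher in D leaves. Novel06231 (4B, bHLH) had 1.82, 1.08 and 2.75 FPKM in D leaves, against 0.0925, 0.0497 and 0 in C leaves, a ratio of 45.7-fold (95% counting interval 15.3 to 225) over 3 fragments in C leaves. Novel16369 (6AS scaffold, FAR1) had 3.01, 1.38 and 1.93 FPKM in D leaves, against 0.232, 0.0935 and 0.0214 in C leaves, a rise of 3.24 ± 0.41 (adjusted P = 0.0014).

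The 5 transcripts with primers, printed above, had their own range of responses. Novel07753 (bHLH) had 32.4, 51.8 and 34.5 FPKM in T leaves, 23, 22 and 16.1 in D leaves and 36.6, 31.6 and 32.1 in C leaves, lower in each D library than in any other. Its values of −0.97 ± 0.21 for D over C and 0.998 ± 0.21 for T over D (unadjusted P = 9.4e-04) fell just short of the fold limit. Novel04197 (DNA integration) had 3.22, 3.7 and 2.39 FPKM in T leaves, 0.468, 1.53 and 0.764 in D leaves and 0.659, 1.5 and 0.396 in C leaves, and rose by 1.81 ± 0.50 in T vs. D (unadjusted P = 0.005). That call was lost without the first or the third D library or without the first or second T library (unadjusted P between 0.0145 and 0.0225). Novel12259 (MYB) had 0.896, 0.162 and 1.75 FPKM in T leaves, 0, 0.0373 and 0 in D leaves and 0, 0 and 0.235 in C leaves, with 71 fragments in T and 1 in D leaves, a ratio of 81.1-fold (95% counting interval 14.1 to 3249.6). Its call (unadjusted P = 0.0035) was lost without the first or the third D library or the first or the third T library (unadjusted P between 0.0117 and 0.0168). Novel13869 (WRKY) had 2.38, 2.33 and 3.2 FPKM in T leaves, 1.35, 0.525 and 1.43 in D leaves and 0.207, 1.2 and 1.16 in C leaves. Differences were 1.33 ± 0.57 for T over D (limma unadjusted P = 0.043), 0.27 ± 0.57 for D over C (limma unadjusted P = 0.64) and 1.60 ± 0.57 for T over C (limma unadjusted P = 0.019). None of them was called. The study reports a fall of this transcript under DTT, citing quantitative RT-PCR, whereas here D leaves did not average below C leaves. Novel00161 (peroxidase activity) had 1.58, 1.48 and 2.86 FPKM in D leaves, against 0, 0.392 and 0.358 in C leaves, and rose by 2.63 ± 0.63 in D vs. C (adjusted P = 0.028).

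Novel15990 (5DL scaffold), annotated as SRG1, an oxygenase-family protein named after senescence in Arabidopsis, is the third added transcript among the study's candidate genes. It had 7.63, 9.86 and 5.19 FPKM in T leaves, 3.34, 4.17 and 2.75 in D leaves and 5.69, 7.05 and 7.21 in C leaves. It fell by 1.19 in D vs. C (adjusted P = 0.019) and rose by 1.15 ± 0.26 in T vs. D (unadjusted P = 0.0013), the D libraries lying below all others. The T vs. D value was 0.91 without the second T library, under the fold limit, and the D vs. C value was −0.95 without scaling. Ratios and bounds of fragments cover counting error only.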

How the data were processed

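Leaf RNA of 9 wheat samples, 3 per group by their labels, was sequenced as paired-end reads from NEBNext Ultra libraries. Per the submitters' processing notes, the authors used Bowtie2 2.2.3, TopHat2 2.0.12 and HTSeq 0.6.1, and deposited FPKM per gene. How added transcripts were assembled, and the genome release, are not given in the sources used here. Start and end of each added transcript, as deposited, were taken as the authors' own values of another kind (bases).

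The deposited FPKM take steps that stand for single fragments, from which fragments and lengths were recovered, with library totals between 16334906 and 26760247. Lengths were chosen so that the values of a feature came out whole. That 100% of values were whole within 0.05 fragments is therefore no independent check. FPKM were scaled by median ratios over genes found in every library and averaging at least 1 FPKM, features with a mean of at least 0.1 FPKM were kept, and limma 3.58.1 (R 4.3.3, trended variance, all 9 libraries) was fitted to log2(FPKM + 0.1) over all features, with Benjamini-Hochberg adjustment over the 78030 tested. DEGs had P under 0.01 and a log2 fold change of at least 1 in size, the study's limits. Fold changes of low transcripts are understated on this scale. Against a group without any fragment, the fold is a bound at 3 fragments over the group. Library shares were compared by a two-sided exact permutation test. The fit was tested on simulated data.

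Replicate numbers were checked for pairing. Correlations of deviations from group means were 0.16, 0.18 and 0.12 for T and C leaves, between -0.05 and -0.00 for D and C leaves, and between -0.17 and 0.04 for T and D leaves. Alternatives were another pseudocount, filter, scaling, variance model or tool, the replicate block and each library left out.

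Named transcripts were those in the study's ER, hormone and candidate tables, those with primers, those under response to water, examples from its transcription factor table, the 5 largest rises and falls of D over C and T over D among eligible DEGs, the 10 most abundant and the 3 longest. Members and lists were chosen with earlier results of these data known. Replicates are independent biological samples per the study. No deposited identifier matched the RefSeq gene table, so names come from the study's tables. Scripts ran in python 3.11.15 with pandas 2.3.3, and plots in matplotlib 3.10.9.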

Additional observations from a re-analysis of the deposited data

How the results depend on the processing

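Each of the 3 counts of DEGs among added transcripts was recomputed under 22 alternatives. With a pseudocount of 1 they were 432 for D over C, 400 for T over C and 38 for T over D, and the T vs. D count was 53 with a minimum mean of 1 FPKM and 0 at an adjusted P under 0.05. Leaving out 1 library gave between 639 and 1010 for D over C, between 684 and 1149 for T over C and between 71 and 322 for T over D, the last without the first T library. A replicate block gave 866, 909 and 116, and changed 1 of the calls of named transcripts. Scaling over added transcripts alone, an alternative chosen after seeing the data, gave 853, 875 and 94. Counts of the lists without the first D, the second T or the third T library were also chosen after seeing the data. In all 22 fits, the main one included, the share of DEGs was lower in added transcripts than in annotated genes in each comparison, and the share of DEGs that rose was higher in added transcripts in D vs. C and T vs. C, but in T vs. D only in 12. The fragment share difference of T minus D, −0.20 percentage points, was 0.40 without the first D library and 0.42 without the second T library, and ran between −0.87 and 0.42 over the libraries left out. The D minus C difference ran between 1.32 and 2.26 and the T minus C difference between 1.05 and 2.35. Of 1637 recomputed values of 79 calls of named transcripts, none changed direction and 111 lost the call, 22 of them with a pseudocount of 1. Low transcripts limit these results, since a pseudocount changes most where few fragments were counted. The causes were not tested.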
